A study of Mus musculus with 12 samples.

Results

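The genes described here encode the outer end of Wnt signaling: the Wnt ligands, the Frizzled receptors and their co-receptors, the proteins that process and release the ligands, the R-spondins and a pair of R-spondin receptors. They were chosen by symbol in the platform annotation, as Wnt or Fzd followed by a digit, Rspo1 to Rspo4, Lrp5, Lrp6, Porcn, Wls, Lgr4 or Lgr6. One probe set stood for a gene, the one with the highest mean over the 12 arrays among those with a single gene symbol. The rule found 40 of 22180 genes. These were 19 Wnt ligands, 10 Frizzled receptors, the 4 R-spondins, the co-receptors Lrp5 and Lrp6, the ligand-processing proteins Porcn and Wls, and the receptors Lgr4 and Lgr6. The symbol rule also took in Fzd10os, a noncoding transcript opposite Fzd10 and no receptor, which is kept apart from the receptors below. Of the 40, 38 were tested. Wnt16 and Fzd3 had mean log2 signals of 3.56 and 3.55, among the dimmest 25% of all genes, so they were near background and were not tested (the lowest mean of a tested gene was 3.654).

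The signals came from colorectal tumors of mice that had all received the carcinogen azoxymethane and the colon irritant dextran sulfate (AOM/DSS). The 4 groups of 3 samples were Stat3dm stroma, Stat3wt stroma, Stat3dm tumor and Stat3wt tumor. Stat3dm mice lacked Stat3 in their myeloid cells through a conditional deletion and Stat3wt mice were wild type, and the study asked which stromal changes depend on STAT3, a transcription factor activated by cytokines, in myeloid cells. Stroma and tumor were cut apart by laser capture from paraffin-embedded tissue, and each sample pooled 2 tumors of 1 mouse. The sources used here name neither the driver of the deletion nor the animals' age or strain. Whether the samples of a group came from separate mice, and whether stroma and tumor of 1 number came from the same mouse, is not stated either, so p-values measure the spread between these samples, which may in part be technical. All values below are log2 signals from robust multi-array average (RMA), and a difference of 1 on this scale is a doubling. Each probe set has its own brightness, so the signal of one gene is not set against that of another.

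Wnt proteins are secreted lipid-bearing signals. Porcn attaches the lipid, and Wls carries the modified ligand to the cell surface. Many Wnts bind a Frizzled receptor together with Lrp5 or Lrp6, which stops the breakdown of beta-catenin and switches on target genes, while Wnt5a, Wnt5b and Wnt11 are known mainly for signaling without beta-catenin. R-spondins bind receptors of the Lgr family and protect Frizzled receptors from the membrane ligases Rnf43 and Znrf3. In the colon this pathway maintains the stem cells at the crypt base, and much of the Wnt and R-spondin there is made by stromal cells under the epithelium.

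The arrays of a group correlated at 0.881 to 0.967 over the tested genes, and 0 of 66 pairs of arrays were identical. Stat3 itself, with 1 probe set, averaged 7.36 ± 0.04 in Stat3dm stroma and 7.35 ± 0.65 in Stat3wt stroma, and 7.44 ± 0.47 in Stat3dm tumor and 7.71 ± 0.44 in Stat3wt tumor (SD, n = 3 each), so it did not check the labels of tissue in which other cells keep the gene. All 12 epithelial markers lay lower in stroma than in tumor and 6 passed the test, and 12 of 14 fibroblast markers lay higher and 4 passed. The mean epithelial marker signal was 7.26 to 8.63 in Stat3dm stroma and 7.57 to 7.93 in Stat3wt stroma, against 8.59 to 9.38 in Stat3dm tumor and 8.49 to 9.20 in Stat3wt tumor. Levels of T cell markers ran from 5.51 to 6.31 in Stat3dm stroma and from 5.15 to 5.58 in Stat3wt stroma, and those of B cell markers from 5.63 to 6.90 in Stat3dm stroma and from 4.67 to 5.53 in Stat3wt stroma. Macrophage markers had levels of 6.12 to 6.72 in Stat3dm stroma and of 5.43 to 6.65 in Stat3wt stroma. In tumor, T cell markers had levels of 5.09 to 5.25 in Stat3dm and, without overlap, of 4.63 to 4.86 in Stat3wt. The B cell marker levels there were 4.78 to 4.94 in Stat3dm and 4.29 to 4.98 in Stat3wt. Those of macrophage markers were 5.28 to 5.69 in Stat3dm tumor and 5.48 to 6.04 in Stat3wt tumor. The part of these cell types in the genotype differences below was not tested. The highest epithelial value in stroma, 8.63, belonged to Stat3dm stroma 1 and lay inside the tumor range. Member results that rest on this array are therefore given with and without it. The SD of all values of an array ran between 1.60 in Stat3wt stroma 1 and 1.91 in Stat3wt tumor 3, and Stat3dm tumor 3 was the second widest at 1.85.

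Promoter sequence from RefSeq (GRCm38.p6) was found for 26 of the 40 genes, as 29 windows of 250 bases ending at an annotated start. Windows are shown for Wnt6, one of the ligands farthest apart between the genotypes, and for Wnt5b, Wnt2b and Lgr4, the members with the smallest p between the tissues. In all 29 windows, 2 motifs were searched on both strands: CTTTGAT, the core bound by the TCF/LEF partners of beta-catenin, and TTCNNNGAA, the core bound by STAT proteins. Capitals mark matches, and the sequences run 5′ to 3′ on the strand of the gene.
Wnt6, chr1:74771642-74771891, plus strand: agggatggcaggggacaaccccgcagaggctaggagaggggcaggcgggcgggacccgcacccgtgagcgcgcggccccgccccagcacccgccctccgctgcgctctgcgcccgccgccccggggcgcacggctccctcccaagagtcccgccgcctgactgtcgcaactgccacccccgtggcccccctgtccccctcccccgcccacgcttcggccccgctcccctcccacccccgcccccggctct
Wnt5b, chr6:119449387-119449636, minus strand: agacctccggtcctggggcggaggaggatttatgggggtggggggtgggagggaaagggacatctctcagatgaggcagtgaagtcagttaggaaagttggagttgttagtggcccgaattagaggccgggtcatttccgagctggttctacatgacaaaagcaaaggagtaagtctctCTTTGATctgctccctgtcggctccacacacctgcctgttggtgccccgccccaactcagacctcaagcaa
Wnt5b, chr6:119467212-119467461, minus strand: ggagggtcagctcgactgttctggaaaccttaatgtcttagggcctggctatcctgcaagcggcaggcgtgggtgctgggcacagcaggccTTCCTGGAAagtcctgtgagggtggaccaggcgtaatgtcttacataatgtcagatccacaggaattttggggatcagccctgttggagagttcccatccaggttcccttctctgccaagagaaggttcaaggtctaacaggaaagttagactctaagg
Wnt2b, chr3:104961710-104961959, minus strand: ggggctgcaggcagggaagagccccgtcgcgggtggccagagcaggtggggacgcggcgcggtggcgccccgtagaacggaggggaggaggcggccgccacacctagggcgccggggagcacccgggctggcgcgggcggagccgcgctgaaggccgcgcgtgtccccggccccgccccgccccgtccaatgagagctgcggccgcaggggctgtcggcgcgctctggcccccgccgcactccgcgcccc
Lgr4, chr2:109917397-109917646, plus strand: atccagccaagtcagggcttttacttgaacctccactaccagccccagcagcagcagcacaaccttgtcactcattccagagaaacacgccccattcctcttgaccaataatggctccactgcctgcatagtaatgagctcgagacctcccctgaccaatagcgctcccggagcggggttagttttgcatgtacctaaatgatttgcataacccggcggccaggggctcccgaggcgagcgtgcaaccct
The TCF/LEF letters stood in 2 of the 29 windows, those of Wnt5b and Wnt11, against 3.21% of 32851 promoter windows of that length in the mouse table. In Wnt5b the match began 71 bases before the start. The STAT letters stood in 1 of the 29 windows, another start of Wnt5b, 159 bases before it, against 7.02% of all windows. The windows of Wnt6, Wnt2b and Lgr4 held neither, nor did the third window of Wnt5b, which is not shown. A match is a run of letters and was not tested as a binding site.

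None of the 38 genes passed an adjusted p of 0.05 in any of the 7 contrasts of the limma fit, adjusted with Benjamini-Hochberg over all 16635 genes. In that fit 425 genes (2.55%) passed between stroma and tumor averaged over both genotypes, 47 genes (0.283%) passed between Stat3dm and Stat3wt averaged over both tissues, and 3 genes (0.018%) passed between Stat3dm and Stat3wt in tumor. The counts were 0 (0%) between the genotypes in stroma, between the tissues within Stat3dm, between the tissues within Stat3wt and for the interaction. At an unadjusted p under 0.05, limma counted 9 of the 38 between stroma and tumor on average, which is 23.7% of them against 22.3% of all genes. Within Stat3wt it counted 11 (28.9% against 16.7%), and within Stat3dm it counted 1 (2.63% against 9.68%). Between Stat3dm and Stat3wt it counted 2 in stroma (5.26% against 5.07%), 5 in tumor (13.2% against 6.26%) and 7 averaged over tissues (18.4% against 8.23%), and for the interaction it counted 2 (5.26% against 2.41%). To judge the pairing, group means were subtracted and the remaining deviations of the samples were correlated. For 2 of the contrasts all 3 same-numbered pairs of samples correlated positively in their deviations, but this did not settle the pairing. The deviations of Stat3dm tumor 1 correlated at 0.593 with those of Stat3wt tumor 2 and at 0.317 with those of Stat3wt tumor 1. Those of Stat3dm stroma 2 correlated at 0.125 with those of Stat3dm tumor 1. With the number as a block, the count over all genes was 152 between the tissues within Stat3dm and 89 between the genotypes in tumor, and 0 of the 38 passed in either.

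Among the ligands, Wnt10a and Wnt6 had the lowest signals in Stat3dm relative to Stat3wt. Their genes are adjacent protein-coding genes on chromosome 1 in the RefSeq table, and Wnt10a is known as a ligand of the beta-catenin branch. Wnt10a had 5.39, 5.98 and 5.87 in Stat3dm stroma, against 6.25, 7.04 and 6.09 in Stat3wt stroma. In tumor it had 5.62, 6.0 and 5.74 in Stat3dm and 6.71, 7.10 and 6.21 in Stat3wt. Every Stat3dm sample lay below every Stat3wt sample in both tissues and over the 6 against 6 samples pooled. The difference was -0.71 in stroma and -0.88 in tumor, and -0.80 ± 0.20 (SE) on average, 1.74-fold lower in Stat3dm, with an adjusted p of 0.124 in limma. Wnt10a was the only one of the 38 genes whose 6 Stat3dm samples all lay below the 6 Stat3wt samples, against 0.367% of all genes. Without Stat3dm stroma 1 the stroma difference of Wnt10a was -0.53 and the average -0.71.

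Wnt6, another secreted ligand, had the lower of its genotype differences in tumor. It had 5.88, 6.26 and 5.91 in Stat3dm tumor, against 7.25, 7.43 and 6.83 in Stat3wt tumor. In stroma it had 5.46, 5.93 and 5.86 in Stat3dm and 5.48, 7.16 and 6.18 in Stat3wt. The tumor samples of the genotypes did not overlap, while in stroma Stat3wt stroma 1 lay among the Stat3dm samples. The difference was -1.15 ± 0.33 (SE) in tumor, with a 95% interval of -1.86 to -0.44 and an adjusted p of 0.420 in limma, and -0.52 in stroma. Averaged over tissues it was -0.84 ± 0.23 (SE), 1.79-fold lower in Stat3dm (adjusted p 0.179), and -0.76 without Stat3dm stroma 1. The tumor and stroma differences of Wnt6 differed by 0.63 (unadjusted p 0.199 for the interaction).

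Wnt5a, a ligand of the branch without beta-catenin, averaged 4.71 ± 0.29 in Stat3dm stroma and 5.21 ± 0.28 in Stat3wt stroma, and 4.49 ± 0.07 in Stat3dm tumor and 4.96 ± 0.44 in Stat3wt tumor (SD, n = 3 each). Its genotype groups did not overlap in either tissue, with differences of -0.50 and -0.47, though over all 12 samples they did overlap (adjusted p of the average 0.368). In stroma the closest values were 4.932 in Stat3dm and 4.936 in Stat3wt, and the lowest value, 4.38, was that of Stat3dm stroma 1. Wnt5a was picked after its values were seen. In all, the Stat3dm samples lay wholly below the Stat3wt samples for 4 of the 38 genes in stroma (Wnt10a, Wnt5a, Fzd6 and Lgr6), 10.5% of them against 5.62% of all genes. In tumor this held for 5 (Wnt10a, Wnt6, Wnt5a, Fzd6 and Fzd8), 13.2% against 5.46% of all genes. The opposite arrangement, Stat3dm wholly above Stat3wt, held for 0 of the 38 in stroma (5.13% of all genes) and 0 in tumor (4.05%).

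**Figure D1:**
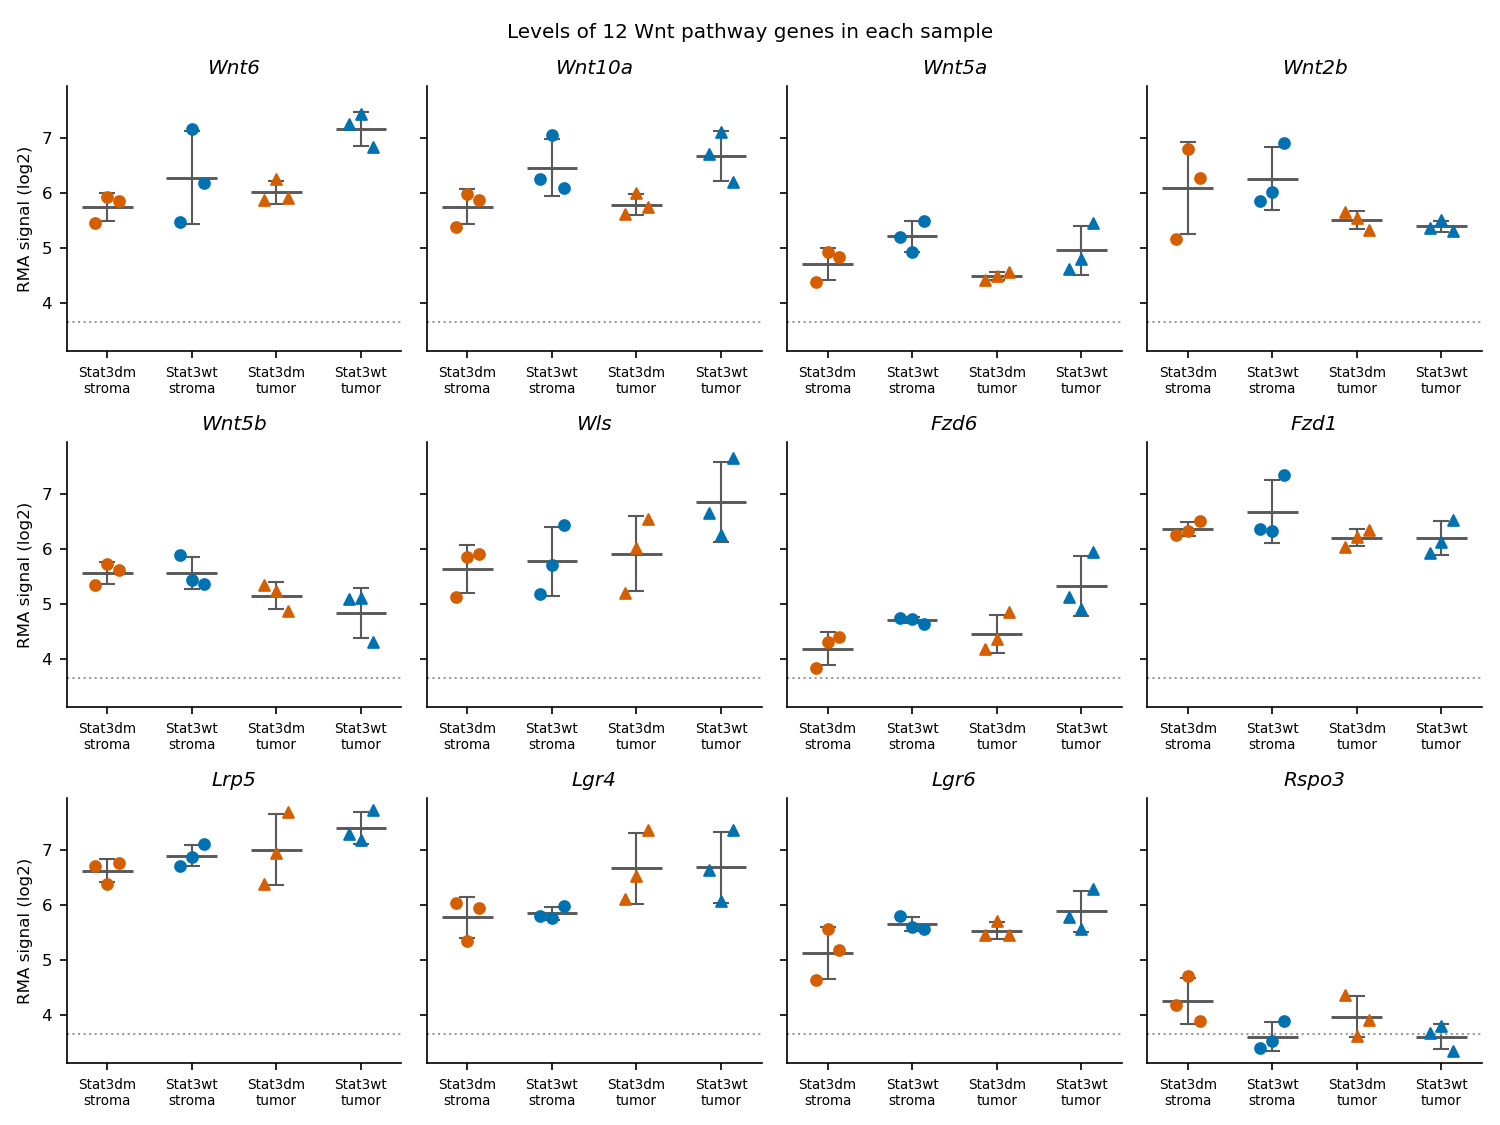
RMA log2 signal of 12 members in each of the 12 samples, with 1 point per sample, group means as horizontal lines, SD as error bars and a dotted line at the level below which a mean counted as near background. All 6 Stat3dm points of Wnt10a lie below all 6 Stat3wt points, while the stroma points of Lgr4 lie below its tumor points in both genotypes.

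Of the 18 ligands, 14 lay below 0 between the genotypes in stroma, with a median difference of -0.22. In tumor 14 lay above 0, with a median of 0.10, but only 11 did with centred arrays, and with the array SD as a covariate 12 lay below 0, with a median of -0.10. The ligands' shift was not tested between the tissues. Over all genes 47.2% lay above 0 in stroma and 48.7% in tumor. Wnt8b and Wnt9b, ligands known mainly from the embryo, had the smallest interaction p of the 38. Wnt8b had 4.42, 4.06 and 4.08 in Stat3dm stroma, against 4.99, 4.63 and 4.25 in Stat3wt stroma. Its tumor signals were 4.76, 4.57 and 3.84 in Stat3dm and 3.88, 3.95 and 3.77 in Stat3wt. The genotypes overlapped in both tissues. The stroma difference of -0.43 and the tumor difference of 0.52 gave an interaction of -0.96 ± 0.36 (SE), with an unadjusted p of 0.0184 and an adjusted p of 0.995 in limma. Wnt9b had 4.34, 4.33 and 4.09 in Stat3dm stroma, against 4.96, 4.26 and 4.32 in Stat3wt stroma. Its signals in tumor were 4.53, 4.39 and 4.21 in Stat3dm and 4.29, 3.68 and 3.27 in Stat3wt. The groups overlapped in both tissues, and the interaction was -0.89 (adjusted p 0.995). Wnt9a, a ligand known from joint formation, followed with an interaction of -0.52 (unadjusted p 0.158). Wnt9a had 4.35, 4.84 and 4.76 in Stat3dm stroma, against 4.99, 5.07 and 4.55 in Stat3wt stroma. Its signals in tumor were 4.89, 4.79 and 4.20 in Stat3dm and 4.67, 4.26 and 4.06 in Stat3wt. The groups overlapped in both tissues.

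Between the tissues, Wnt2b and Wnt5b stood higher in stroma, and in such bulk tissue fewer cells of a type and less RNA per cell cannot be told apart. Wnt2b is known as a beta-catenin ligand made by intestinal stromal cells. It ran from 5.17 over a median of 6.14 to 6.91 in the 6 stroma samples, and from 5.32 over 5.43 to 5.66 in the 6 tumor samples. All Stat3wt stroma samples of Wnt2b (5.85, 6.01 and 6.91) lay above the Stat3wt tumor samples (5.36, 5.50 and 5.32). In Stat3dm the stroma samples had 5.17, 6.80 and 6.27 and the tumor samples 5.66, 5.54 and 5.33, and Stat3dm stroma 1, the array with tumor-like epithelial signal, lay below all tumor values while the other stroma samples lay above them. The averaged difference was 0.72 ± 0.25 (SE), 1.65-fold higher in stroma, with an adjusted p of 0.116 in limma. Without Stat3dm stroma 1 it was 0.95, with an adjusted p of 0.0269.

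Wnt5b, a close relative of Wnt5a, had 5.35, 5.73 and 5.62 in Stat3dm stroma, against 5.35, 5.24 and 4.87 in Stat3dm tumor. It had 5.89, 5.43 and 5.36 in Stat3wt stroma, against 5.09, 5.1 and 4.30 in Stat3wt tumor. Its 6 stroma samples (5.35 to 5.89, median 5.52) all lay above its 6 tumor samples (4.30 to 5.35, median 5.09), by a margin that does not show at 2 decimals. The averaged difference was 0.57 ± 0.18 (SE), 1.49-fold higher in stroma (adjusted p 0.0884), and 0.27 with the array SD as a covariate. Wnt5b was the only ligand, and 1 of 38 genes, with such separation upward over all 12 samples, against 0.721% of all genes. Within Stat3dm, Wnt5b, Wnt4 and Fzd10 separated upward in stroma (3 of 38, against 6.57% of all genes). Within Stat3wt, 6 of 38 did (against 8.88% of all genes), all of them ligands: Wnt2b, Wnt5b, Wnt10b, Wnt7b, Wnt1 and Wnt8b.

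Wnt4, a ligand known from kidney and ovary development, had 5.34, 5.27 and 5.69 in Stat3dm stroma and 4.99, 5.16 and 4.86 in Stat3dm tumor, a difference of 0.43 (adjusted p 0.520). It had 5.38, 5.41 and 4.97 in Stat3wt stroma, against 5.25, 5.36 and 4.97 in Stat3wt tumor. The tissues separated within Stat3dm and overlapped within Stat3wt, and the interaction of Wnt4 was 0.37 (unadjusted p 0.217). Wnt8b and Wnt9b differed by 0.75 and 0.77 between Stat3wt stroma and Stat3wt tumor (adjusted p 0.241 each). Of the 18 ligands tested, 16 lay above 0 between stroma and tumor averaged over genotypes, with a median of 0.26, while 47% of all genes did, with a median of -0.03. The exceptions were Wnt6, at -0.58, and Wnt10a, at -0.13 (0.03 with quantile normalization).

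That common direction of the ligands moved with the spread of the arrays. Stat3wt tumor 3 and Stat3dm tumor 3, the widest arrays, had median ligand deviations of -0.43 and -0.42 from the 12-array means, while Stat3wt stroma 1, the narrowest, had 0.36. Stat3wt tumor 3 held the lowest value for 14 of the 38 members, against 22.8% of all genes. With the array SD as a covariate, 8 of 18 ligands lay above 0 between stroma and tumor, with a median of -0.04, and without the 2 widest arrays 13 of 18 did, with a median of 0.11. With quantile normalization 16 of 18 lay above 0, and with arrays centred on their medians 15 of 18. Of the ligands, 12 had dim probe sets, taken as means under 5.1, and their means ran from 4.05 to 5.04. All 12 of these lay above 0, against 62.4% of the 5558 genes with means in that range. The array SD itself ran partly with tissue. In Stat3wt it was 1.60 to 1.76 in stroma and 1.75 to 1.91 in tumor. In Stat3dm it was 1.65 to 1.72 in stroma and 1.65 to 1.85 in tumor. A fit with this covariate therefore cannot tell a tissue difference from array spread. The part of array spread in the ligand shift was not tested. Wnt2b moved the other way from this pattern, with 0.85 under the covariate.

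**Figure D2:**
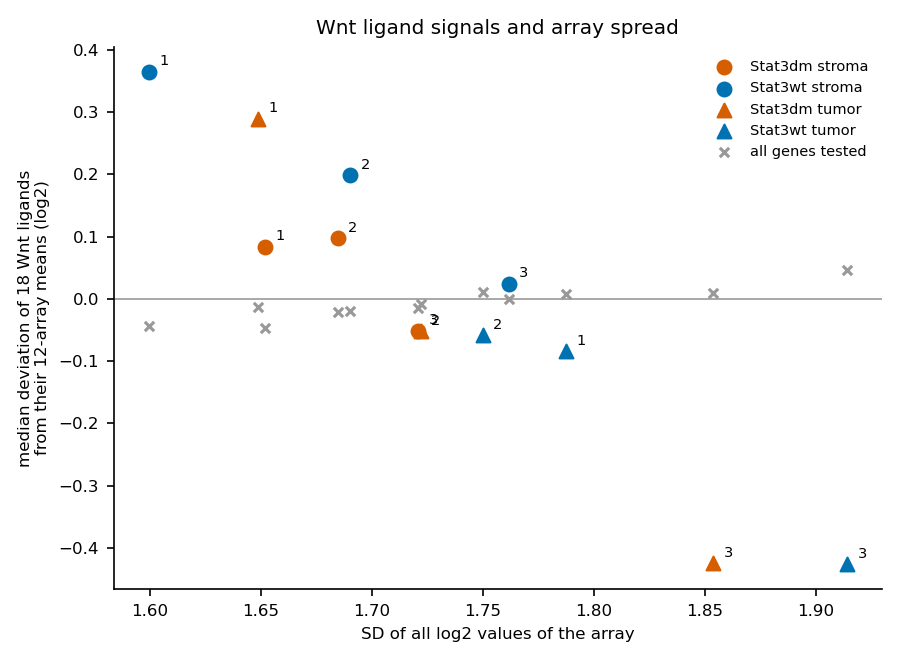
Median deviation of the 18 tested Wnt ligands from their 12-array means (vertical axis, log2) against the SD of all log2 values of each array (horizontal axis), with arrays numbered by replicate and crosses for the median over all genes tested. The 2 widest arrays, both of tumor, sit at -0.42 and -0.43, and the narrowest, of Stat3wt stroma, at 0.36.

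Of the proteins that prepare ligands, Wls ranged widely between samples and Porcn did not. Wls averaged 5.64 ± 0.43 in Stat3dm stroma, 5.77 ± 0.63 in Stat3wt stroma, 5.92 ± 0.68 in Stat3dm tumor and 6.85 ± 0.72 in Stat3wt tumor (SD, n = 3 each). Its highest value, 7.66, and its highest Stat3dm value, 6.54, both came from the widest arrays. Between stroma and tumor Wls differed by -0.68 on average (adjusted p 0.191 in limma), and with the array SD as a covariate the difference was 0.02. Between Stat3dm tumor and Stat3wt tumor it was -0.94 (adjusted p 0.774), and -0.37 under the covariate. Porcn kept group means between 4.95 and 5.02.

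Among the 9 tested Frizzled receptors, Fzd6, known for planar polarity of hair and skin, stood apart between the genotypes. It had 3.85, 4.32 and 4.41 in Stat3dm stroma, against 4.75, 4.73 and 4.65 in Stat3wt stroma. In tumor it had 4.19, 4.36 and 4.85 in Stat3dm and 5.13, 4.91 and 5.95 in Stat3wt. The groups did not overlap in either tissue, although the highest Stat3dm tumor value lay above the Stat3wt stroma values. The difference was -0.52 in stroma, -0.87 ± 0.27 (SE) in tumor (adjusted p 0.478 in limma) and -0.69 ± 0.19 (SE) on average, 1.62-fold lower in Stat3dm (adjusted p 0.170). With the array SD as a covariate the average was -0.57, and without Stat3dm stroma 1 it was -0.61. Between stroma and tumor Fzd6 differed by -0.45 (adjusted p 0.186), and by -0.13 under the covariate.

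Of the other Frizzled receptors, Fzd5 and Fzd8 pointed in opposite directions, and both were picked after their values were seen. Fzd8 averaged 4.02 ± 0.20 in Stat3dm tumor and 4.48 ± 0.16 in Stat3wt tumor (SD, n = 3 each) without overlap, a difference of -0.47, against -0.06 in stroma. Fzd5, a Frizzled receptor of the intestinal epithelium, was higher in Stat3dm by 0.39 in stroma, 0.28 in tumor and 0.33 on average (adjusted p 0.558 in limma), with overlap in each case. Fzd1 had 6.25, 6.33 and 6.5 in Stat3dm stroma, against 6.37, 6.33 and 7.34 in Stat3wt stroma. The tumor samples had 6.04, 6.22 and 6.34 in Stat3dm and 5.93, 6.13 and 6.53 in Stat3wt. One sample, Stat3wt stroma 3, stood well above the rest. Fzd1 differed by 0.32 between stroma and tumor (95% interval -0.08 to 0.72, adjusted p 0.317) and by -0.16 between the genotypes. Of the 9 Frizzled receptors, 7 lay above 0 between stroma and tumor (median 0.17), the exceptions being Fzd6 and Fzd5, and 6 of 9 (median 0.07) with the array SD as a covariate. Between the genotypes in stroma 7 of 9 lay below 0 (median -0.20), and without Stat3dm stroma 1 this held for 5 of 9 (median -0.13). Fzd2, Fzd4, Fzd7, Fzd9 and Fzd10 had averaged genotype differences between -0.18 and 0.04. Fzd10os had group means within 0.11 of each other.

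The co-receptors Lrp5 and Lrp6, which pair with Frizzled to carry the beta-catenin signal, had no genotype difference whose 95% interval left out 0. Lrp5 had 6.71, 6.38 and 6.77 in Stat3dm stroma, against 6.39, 6.95 and 7.68 in Stat3dm tumor. It had 6.72, 6.87 and 7.10 in Stat3wt stroma, against 7.28, 7.18 and 7.72 in Stat3wt tumor. The tissues separated within Stat3wt only, where 3 of the 38 genes (Lrp5, Fzd6 and Lgr4) lay wholly lower in stroma, against 15% of all genes. Lrp5 differed by -0.44 ± 0.20 (SE) between stroma and tumor (adjusted p 0.212 in limma) and by -0.04 with the array SD as a covariate, and between the genotypes by -0.33 (adjusted p 0.760).

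Lrp6 had 6.82, 6.77 and 6.79 in Stat3dm stroma, against 6.59, 6.93 and 7.33 in Stat3wt stroma. In tumor it had 6.27, 6.53 and 7.42 in Stat3dm and 6.69, 7.0 and 7.60 in Stat3wt. The highest tumor value of each genotype came from replicate 3, the widest array of its group. The stroma against tumor difference was -0.05, with a 95% interval of -0.51 to 0.41, and the averaged genotype difference was -0.26 (adjusted p 0.854 in limma). With the array SD as a covariate the tissue difference of Lrp6 lay above 0. In that fit the median of the 2 co-receptors was 0.18, and 1 of them had an unadjusted p under 0.05 in limma, as did 2500 of all 16635 genes. Lrp6 was the only member with a second probe set, which averaged 5.86 in Stat3dm stroma, 5.99 in Stat3wt stroma, 6.04 in Stat3dm tumor and 6.44 in Stat3wt tumor.

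**Figure D3:**
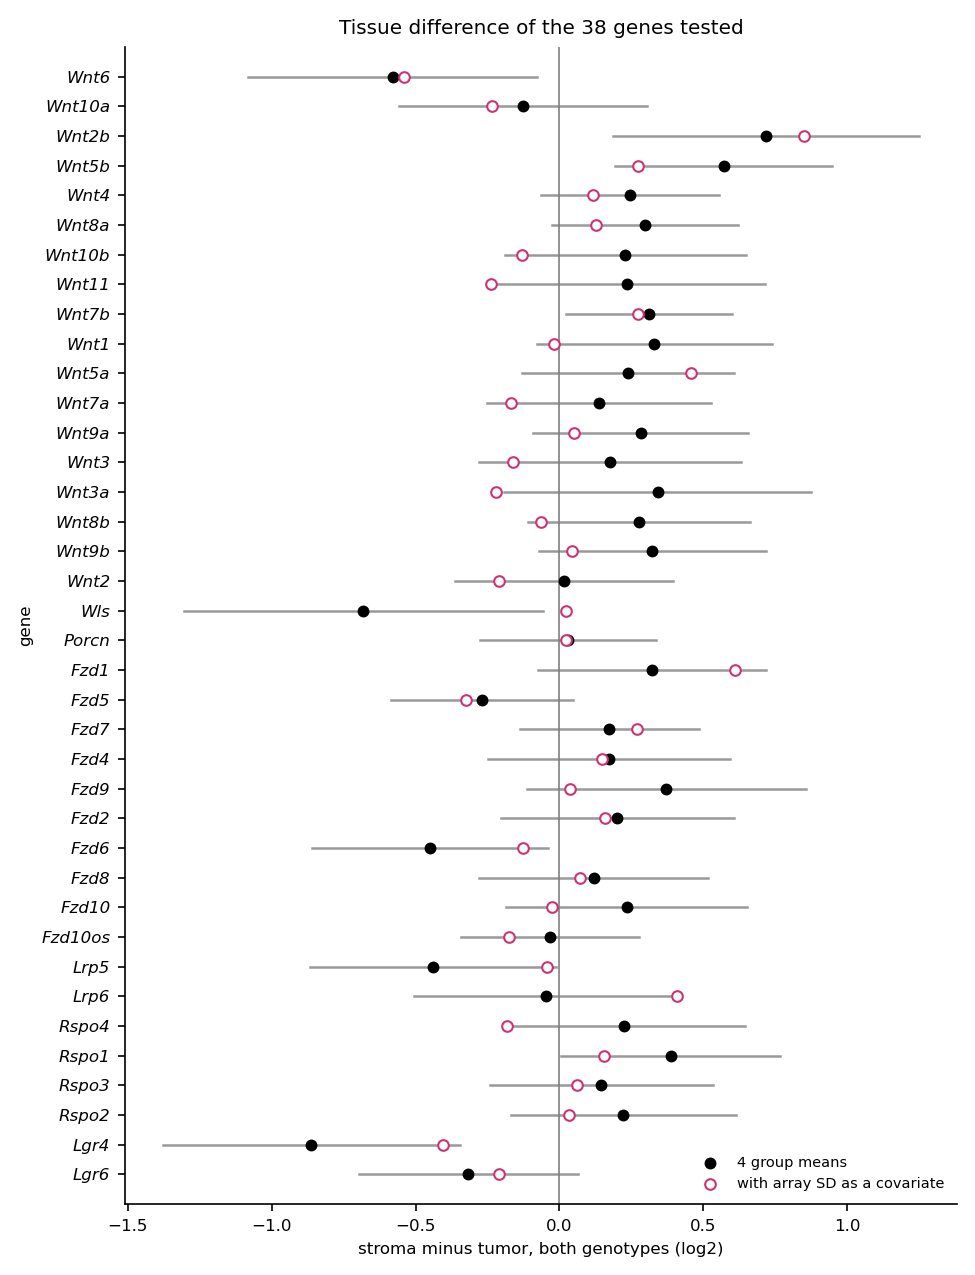
Stroma minus tumor differences (log2) averaged over both genotypes for the 38 tested genes, ordered by role, with 95% intervals, and open pink points for the same difference with the array SD as a covariate. Most ligands lie to the right of 0 in the first fit and near 0 in the second, and Lgr4, at -0.86, lies farthest to the left.

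All 4 R-spondins, which enhance the Wnt signal at the receptor, were nominally higher in Stat3dm than in Stat3wt in both tissues. Their median differences were 0.25 in stroma, 0.31 in tumor and 0.25 on average. Rspo3, known as a stromal support of intestinal stem cells, had the largest difference in stroma and on average. In tumor Rspo4 had the largest, at 0.44. Rspo3 had 4.19, 4.71 and 3.89 in Stat3dm stroma, against 3.40, 3.53 and 3.90 in Stat3wt stroma. The values in tumor were 4.37, 3.63 and 3.92 in Stat3dm and 3.67, 3.80 and 3.35 in Stat3wt. The genotypes overlapped in both tissues, in stroma only in that the lowest Stat3dm value lay just under the highest Stat3wt value. The stroma difference of Rspo3 was 0.65 ± 0.26 (SE), with a 95% interval of 0.11 to 1.2 and an adjusted p of 0.869 in limma, and it was 0.69 without Stat3dm stroma 1. In tumor it was 0.37 and on average 0.51 (adjusted p 0.364).

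Several Rspo3 signals lay near background, at 3.61 ± 0.26 on average in Stat3wt stroma and 3.61 ± 0.23 in Stat3wt tumor (SD, n = 3 each). Rspo2 was also dim, at 4.05 ± 0.48 in Stat3dm stroma and 3.83 ± 0.14 in Stat3wt stroma. In tumor it averaged 3.84 ± 0.31 in Stat3dm and, near background, 3.60 ± 0.32 in Stat3wt (SD, n = 3 each). Rspo1 averaged 5.24 ± 0.33 in Stat3dm stroma and 4.97 ± 0.13 in Stat3wt stroma, and 4.84 ± 0.40 in Stat3dm tumor and 4.59 ± 0.35 in Stat3wt tumor (SD, n = 3 each). The genotype averages of Rspo1, Rspo2 and Rspo4 differed by 0.26, 0.23 and 0.24, with adjusted p of 0.801 to 0.849 in limma. The 4 R-spondins stayed above 0 in the genotype contrasts with the array SD as a covariate, with quantile normalization, with centred arrays, without the 2 widest arrays and without Stat3dm stroma 1. Under the covariate their median was 0.10 in tumor and 0.16 on average. Between stroma and tumor all 4 lay above 0 as well, with a median of 0.22, but under the array SD covariate only 3 of 4 did, with a median of 0.05. Rspo1 had the largest tissue difference, 0.39 (adjusted p 0.217).

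**Figure D4:**
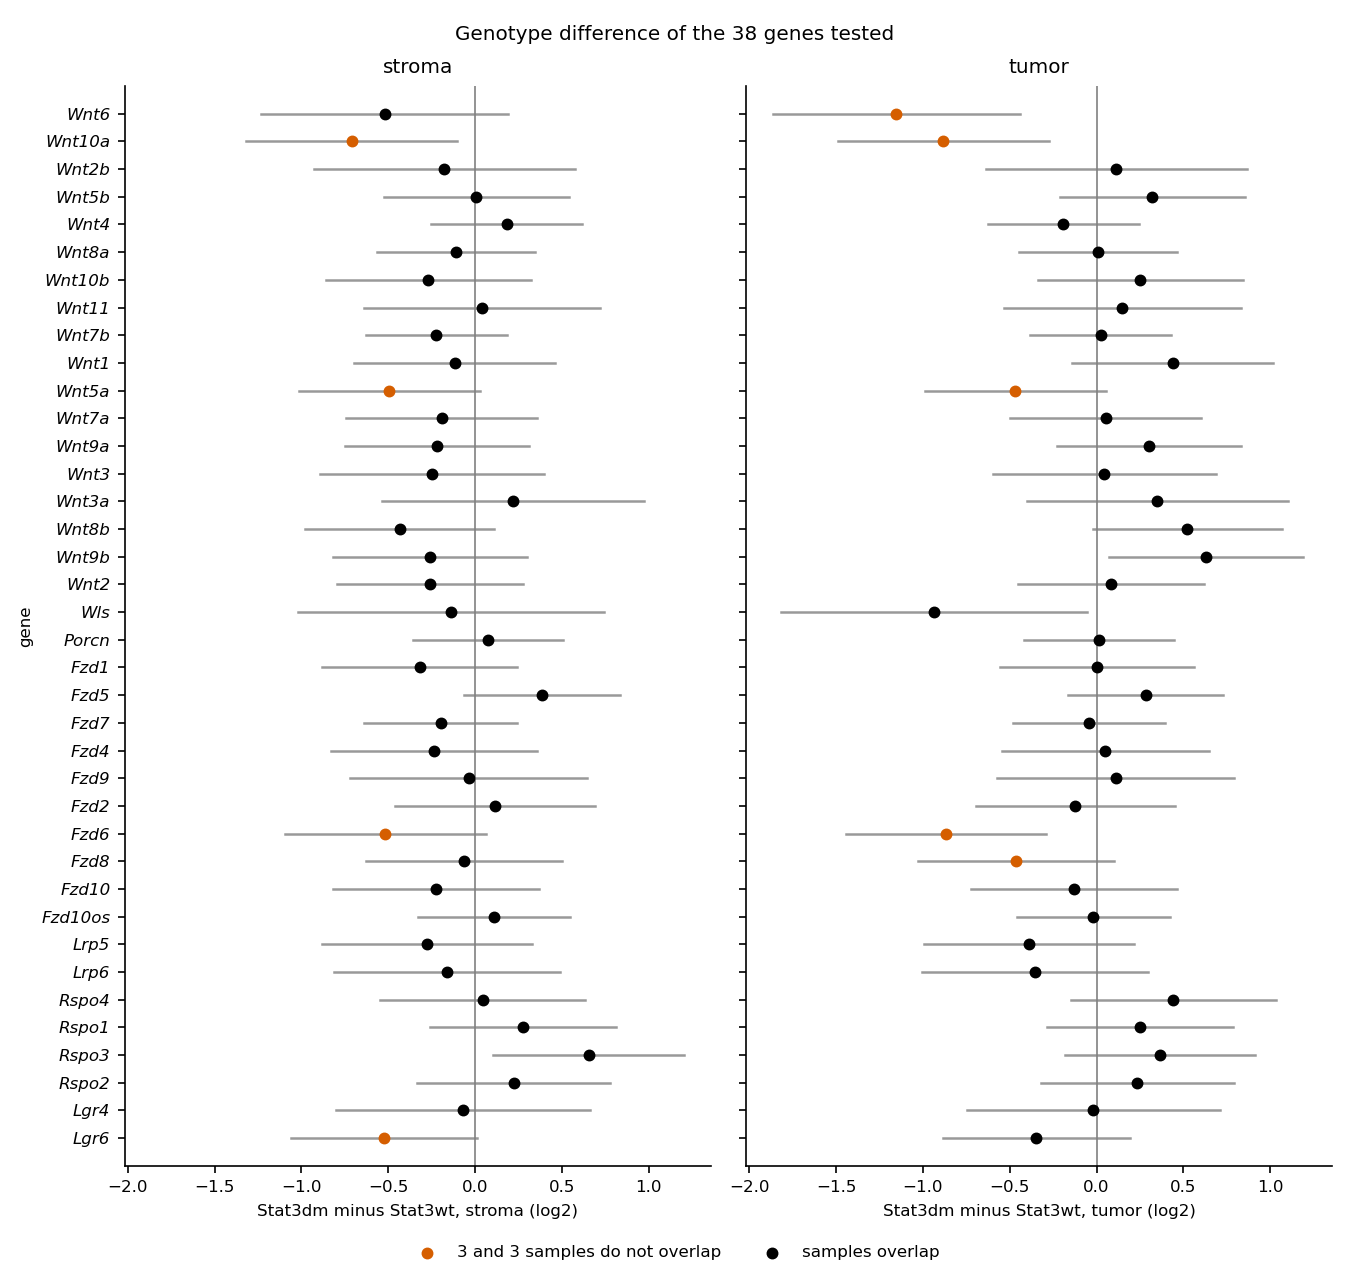
Stat3dm minus Stat3wt differences (log2) with 95% intervals for the 38 tested genes in stroma and in tumor, ordered by role, with orange marking genes whose 3 and 3 samples do not overlap. Orange points occur below 0 alone, at Wnt10a, Wnt5a, Fzd6 and Lgr6 in stroma and at Wnt10a, Wnt6, Wnt5a, Fzd6 and Fzd8 in tumor, and the 4 R-spondins lie above 0 in both panels.

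Lgr4, an R-spondin receptor of crypt cells, was the member with the smallest p between the tissues. It had 6.03, 5.35 and 5.95 in Stat3dm stroma, against 6.10, 6.53 and 7.37 in Stat3dm tumor. It had 5.81, 5.76 and 5.98 in Stat3wt stroma, against 6.64, 6.06 and 7.35 in Stat3wt tumor. All 6 stroma samples lay below all 6 tumor samples, which held downward for 1 of 38 members and for 1.33% of all genes. Within Stat3dm it was also the 1 member that separated downward, against 7.16% of all genes. The difference was -0.89 within Stat3dm, -0.84 within Stat3wt and -0.86 ± 0.24 (SE) on average, 1.82-fold lower in stroma, with an adjusted p of 0.0704 in limma. It was -0.93 without Stat3dm stroma 1 and -0.40 with the array SD as a covariate, and the highest tumor values came from the 2 widest arrays. Between the genotypes Lgr4 differed by -0.04, with a 95% interval of -0.56 to 0.47.

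Lgr6, a related R-spondin receptor, had 4.63, 5.57 and 5.19 in Stat3dm stroma, against 5.80, 5.60 and 5.57 in Stat3wt stroma. In tumor it had 5.45, 5.71 and 5.45 in Stat3dm and 5.79, 5.56 and 6.30 in Stat3wt. The stroma groups did not overlap, but the lowest value was that of Stat3dm stroma 1, and the closest values of the groups were equal at 2 decimals. The stroma difference of Lgr6 was -0.53 (adjusted p 0.999 in limma), and -0.28 without that array. Averaged over tissues Lgr6 differed by -0.44 between the genotypes (adjusted p 0.484).

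Of the other genes of the pathway, 57 were listed and 52 tested. Between the genotypes on average 44 of the 52 lay below 0, with a median of -0.31, and 1 passed the test, against 0.283% of all genes. Of the 38 members 23 lay below 0, with a median of -0.04, while 47.4% of all genes lay above 0. The gene that passed was Dkk2, a secreted protein that binds Lrp5 and Lrp6 and is known mainly as a Wnt antagonist. Dkk2 had 4.23, 4.14 and 3.58 in Stat3dm stroma, against 5.31, 6.03 and 6.02 in Stat3wt stroma. Its tumor signals were 4.43, 4.95 and 4.83 in Stat3dm and 6.79, 6.79 and 7.09 in Stat3wt. No Stat3dm sample reached any Stat3wt sample. Dkk2 fell by 1.98 ± 0.18 (SE) on the log2 scale in Stat3dm, 3.95-fold lower than in Stat3wt, with an adjusted p of 2.79e-04 in limma, and the difference in tumor alone was -2.16 (adjusted p 0.0076). The averaged call of Dkk2 held in 20 of 20 alternatives. The call in tumor was lost without the 2 widest arrays (adjusted p 0.0735) and without Stat3wt tumor 3 (adjusted p 0.0610). Of the 52 genes, 10 passed on average with the array SD as a covariate, 6 with quantile normalization and 1 with centred arrays. Over all 16635 genes, 166, 90 and 17 passed in those fits.

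The 11 tested genes listed as Wnt targets held the receptor Tnfrsf19 as the one with the smallest p. Tnfrsf19 averaged a difference of -0.90 between Stat3dm and Stat3wt (adjusted p 0.0502 in limma), and -1.05 in stroma. Of the 11 targets, 10 lay below 0, with a median of -0.62, and 8 had an unadjusted p under 0.05, against 8.23% of all genes. None of the 11 passed, while 4 did with the array SD as a covariate and 3 with quantile normalization. Over all 16635 genes, 166 and 90 passed in those fits. Notum and Nkd1, feedback inhibitors of Wnt signaling, and Axin2, a scaffold of beta-catenin breakdown, differed by -2.01, -2.13 and -1.24 (adjusted p 0.0828, 0.0828 and 0.0913 in limma). They were picked after their values were seen. In Stat3dm stroma Notum had 3.98, 5.74 and 5.94 and Nkd1 had 3.27, 5.94 and 5.51. In Stat3dm tumor Notum had 5.08, 7.09 and 7.80 and Nkd1 had 5.78, 7.23 and 7.75. Replicate 1 was the lowest each time, and averages without Stat3dm stroma 1 are not given for these genes. The ligases that R-spondins act against, Rnf43 and Znrf3, differed by -1.17 and -0.70 (adjusted p 0.0993 and 0.241). Lef1, a nuclear partner of beta-catenin, differed by -1.31 in tumor (adjusted p 0.282). Kremen1, a Dkk receptor, and the co-repressor Tle3 had the smallest interaction p of the 52 other pathway genes. Their interactions were 0.71 and 0.87 on the log2 scale (adjusted p 0.995 each in limma).

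Between stroma and tumor, 39 of the 52 lay below 0, with a median of -0.44, and 3 passed, against 2.55% of all genes. With the array SD as a covariate 35 lay below 0, with a median of -0.17, and 0 passed (14 had an unadjusted p under 0.05 in limma). Without the 2 widest arrays 0 passed (15 had an unadjusted p under 0.05 in limma), and with centred arrays 1 passed. Over all 16635 genes, 264 passed with the covariate and 2500 had an unadjusted p under 0.05 in limma. Without the 2 widest arrays these counts were 0 and 2172, and with centred arrays 168 passed. Lower in stroma were Dkk2, which fell by 0.93 (adjusted p 0.0283 in limma), the surface proteoglycan Gpc4, which fell by 1.08 (adjusted p 0.0405), and Pygo2, a nuclear cofactor of beta-catenin, which fell by 0.64 (adjusted p 0.0416). Of 20 alternatives the call held in 12 for Dkk2, 9 for Gpc4 and 7 for Pygo2. It was lost for all 3 without Stat3dm stroma 2, Stat3wt stroma 3, Stat3dm tumor 2, Stat3dm tumor 3, Stat3wt tumor 1 or Stat3wt tumor 3, each left out alone. Without Stat3wt stroma 1 it was lost for Gpc4 and Pygo2, and without Stat3dm stroma 1, Stat3dm stroma 3 or Stat3wt stroma 2 for Pygo2. Sfrp1, a secreted protein that binds Wnts, lay the other way within Stat3wt, at 1.81 (adjusted p 0.212). All 11 target genes lay below 0, with a median of -0.59. With the array SD as a covariate 10 of 11 did, with a median of -0.34. Those with an unadjusted p under 0.05 in limma then numbered 4 in place of 9. Over all 16635 genes they numbered 2500 in place of 3703. The epithelial markers were lower in stroma in the same samples, with a median of -1.03, and their part in the target genes' difference was not tested.

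**Figure D5:**
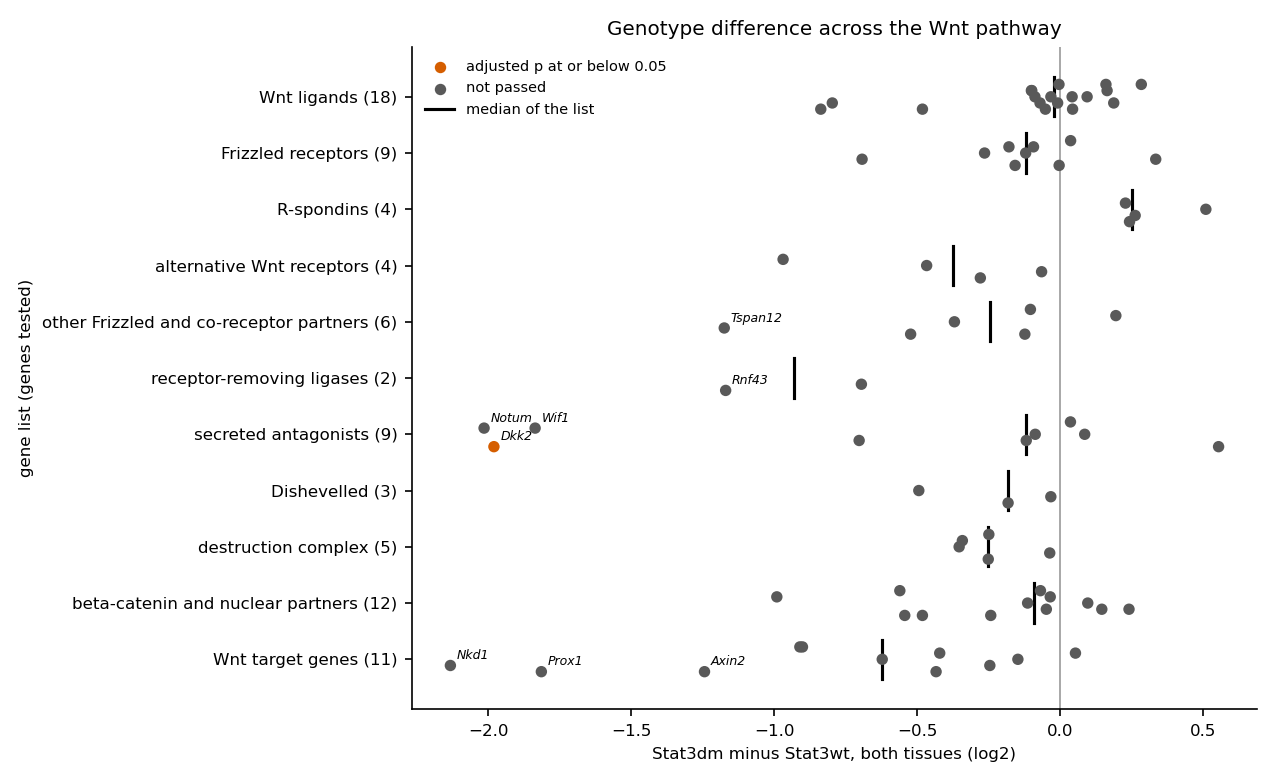
Stat3dm minus Stat3wt differences (log2) averaged over both tissues, with 1 point per gene, for the member groups and for the lists of other pathway genes. Dkk2, the orange point at -1.98, is the only gene shown that passed an adjusted p of 0.05, and most points of the target, ligase and antagonist lists lie below 0 while the 4 R-spondins lie above it.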

How the data were processed

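RNA of 12 laser-captured samples, 50 ng each, had been hybridised to 12 single-colour Affymetrix arrays, per the labels' protocols. The authors deposited log2 values of 41345 probe sets. Per the submitters' processing notes these came from RMA in Affymetrix Expression Console, version 1.3.1. This method corrects background and normalizes the arrays together, so values are relative between arrays. No source used here names the genome build. The log2 values were used as deposited, and array medians lay between 4.20 and 4.43. No counts exist for arrays, so the 3 samples per group limit the precision.

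Of the probe sets, 23521 had 1 gene symbol in the platform annotation, 1814 had several and 16010 were not listed. A gene with several probe sets (1082 of 22180 genes) was represented by the brightest, and the dimmest 25% of genes were left out. The remaining 16635 genes were fitted in limma 3.58.1 (R 4.3.3) with 1 mean per group over all 12 arrays and empirical Bayes moderation. The 7 contrasts were stroma minus tumor and Stat3dm minus Stat3wt, each within the other factor and averaged, and their interaction. P-values were adjusted with Benjamini-Hochberg over all genes, with a threshold of 0.05. The fit was tested on simulated data.

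Values in every sample are given for members that passed, were among the 3 smallest p of a contrast or had the 5 highest means, and others named were chosen after their values were seen. For the other pathway genes the rule took those that passed and the 2 smallest p of a contrast. The members and lists were chosen with earlier results of these data known. Same-numbered samples deviated together at correlations of 0.123 to 0.298 between Stat3dm stroma and Stat3dm tumor and of 0.150 to 0.692 between Stat3dm tumor and Stat3wt tumor. Samples of unlike number reached 0.125 and 0.593 in the same comparisons, so the pairing is uncertain. A block on the number is given for those contrasts, and for the others only among the alternatives. The pairing comes from these correlations alone, since the labels give no basis for it and Stat3dm and Stat3wt are different mice. Alternatives were quantile normalization, centring, array weights, the array SD as a covariate, leaving out the 2 widest arrays, the replicate block and leaving out each sample. Applying them gene by gene to the pathway genes that passed was chosen after seeing the data. The array SD ran partly with the groups, so the covariate fit cannot separate group differences from array spread.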

Additional observations from a re-analysis of the deposited data

How the results depend on the processing

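Counts of genes past an adjusted p of 0.05 in limma moved strongly with the setting. Between stroma and tumor averaged over genotypes, 425 genes passed, against 168 with arrays centred on their medians, 2642 with array weights, 264 with the array SD as a covariate, 0 without the 2 widest arrays, 1876 with the replicate block and 0 to 1296 on leaving out 1 sample. The count was 0 without Stat3wt stroma 3, Stat3dm tumor 2 or Stat3dm tumor 3. Within Stat3dm the 0 became 33 with quantile normalization, 612 with weights, 114 with the covariate, 152 with the replicate block and 0 to 22 on leaving out 1 sample. Within Stat3wt the 0 became 1020 with weights, 138 with the replicate block and 0 to 8. Between the genotypes in stroma the 0 became 1 with quantile normalization, 45 with weights, 13 with the covariate, 28 with the replicate block and 0 to 2. In tumor the 3 became 304 with weights, 14 with the covariate, 89 with the replicate block and 0 to 7. Averaged over tissues the 47 became 90 with quantile normalization, 17 with centring, 431 with weights, 166 with the covariate, 21 without the 2 widest arrays, 292 with the replicate block and 16 to 69. The interaction count of 0 became 3 with weights. The cause was not tested. Of 420 alternative values for 21 pairs of a member and a contrast, 0 turned direction, 402 stayed on their side of the threshold and 18 newly passed it. Each pair had been picked from these same data, for ranking among the 3 lowest p-values in limma for its contrast. That choice itself favored a kept direction, so the 0 does not show that members at large keep theirs. No pair passed in the main fit, so no call could be lost. Wnt10a, Wnt6 and Fzd6 passed between the genotypes on average with array weights (adjusted p 0.00965, 0.0118 and 0.0181). With the replicate block they also passed (0.0139, 0.0291 and 0.0372), but that block pairs different mice by number alone. Their differences ran from -0.91 to -0.65, from -1.04 to -0.62 and from -0.80 to -0.54 over the 20 alternatives. Between the tissues Lgr4 and Wnt5b passed with both, and Wnt2b with weights and without Stat3dm stroma 1. Outside these pairs, the tissue difference of Wls, -0.68, was 0.02 with the covariate, and with the replicate block Wls passed on average (adjusted p 0.0177) and within Stat3wt (-1.08, adjusted p 0.0479). Same-numbered samples of the Stat3wt tissues (deviations correlated at -0.004 to 0.512) and of the genotypes in stroma (-0.040 to 0.152) share only a number. Block results within Stat3wt, in stroma and in the averaged contrasts rest on that pairing, so no member is taken as passing from them. The dim-gene limit of 5.1 was chosen after seeing the data, and 3 samples per group limit every interval.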
